A study of Mus musculus with 18 samples.

Results

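Type I interferon-stimulated genes were followed in RNA from sorted mouse peritoneal macrophages. The set holds 38 genes picked by symbol from the 23511 genes of the count table. All 38 were found and all 38 passed the filter on low counts, which left 16609 genes in the tests. The members cover the factors that carry the interferon signal (Irf7, Irf9, Stat2), the ubiquitin-like protein Isg15 with Usp18 and Herc6, the Ifit and Oas families, sensors of foreign nucleic acid, the GTPases Mx1, Mx2 and Ifi47, antiviral effectors, the Parp9, Parp14 and Dtx3l group, and 6 other induced genes.

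The study compared macrophages with low and high surface Tim-4, a receptor for phosphatidylserine encoded by Timd4 that marks resident cavity macrophages. Each population was sorted under 3 conditions, with 3 libraries per group and 18 libraries in all. The no-tumor groups (Tim-4low and Tim-4high) came from mice that were given no tumor and no treatment and were taken on the same day as the others. The isotype groups and the anti-Tim-4 groups (Tim-4low and Tim-4high in each) came from mice carrying MC38-LG tumors in the peritoneal cavity, MC38 being a line of mouse colon cancer cells. The treatment protocol for tumor-bearing mice gives the antibody to Tim-4 on day 7 after the tumor cells and the harvest on day 10. The labels call the other tumor-bearing arm isotype, which is read here as a control antibody, and the protocol, given for all libraries alike, does not name it. Strain, genotype, age and sex of the mice were not given, and all groups share a sort on Tim-4, so a population is defined by a gate and not by a lineage. Nothing in the labels says that the 3 libraries of a group came from separate mice or from pools, so the p-values measure the spread between these libraries, which may be technical.

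Type I interferons signal through the receptor Ifnar1/Ifnar2 and the kinases Jak1 and Tyk2 to a complex that holds Stat2 and Irf9, which binds the interferon-stimulated response element in the promoters of its targets. Irf7 amplifies the response, and Usp18 and Socs proteins damp it. Interferon gamma acts through a receptor of its own, and many genes answer to both kinds of interferon, so the expression of these members does not by itself name the ligand. In resident macrophages these genes provide a standing guard against viruses and other intracellular microbes.

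The response element gives a sequence view of the set. RefSeq promoter windows (GRCm38.p6, 250 bases before to 50 bases after the start) were found for 27 of the 38 members, and 11 had no entry. The core of the element, GAAA followed by any 2 bases and a second GAAA, was searched on both strands and was present for 12 of the 27 members (44.4%), against 3.99% of 27025 genes. The longer form, which is the core followed by CT and so overlaps it, was present for 6 members (22.2%) against 0.303% of genes. The motif TTCNNNGAA, read the same on both strands and known as the gamma-activated sequence, was present for 6 members (22.2%) against 9.55% of genes. The 12 members with the core were Ifit1, Ifit3, Isg15, Oas1a, Oas3, Rsad2, Stat2, Ddx58, Ifih1, Eif2ak2, Bst2 and Trim30a. A match is a run of letters and not a measured binding site, and no match says only that these letters are not in the window. The 250 bases before the start are printed for 4 members that hold the core and for Ifi47, which holds none and whose levels differ widely between libraries. Capitals mark the matches, and all sequences run 5′ to 3′ along the strand of the gene.
Isg15, chr4:156200819-156201068, minus strand: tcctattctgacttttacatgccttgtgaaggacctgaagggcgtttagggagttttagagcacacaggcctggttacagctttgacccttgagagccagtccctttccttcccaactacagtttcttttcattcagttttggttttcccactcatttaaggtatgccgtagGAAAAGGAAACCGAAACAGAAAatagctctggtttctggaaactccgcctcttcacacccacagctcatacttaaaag
Ifit1, chr19:34640639-34640888, plus strand: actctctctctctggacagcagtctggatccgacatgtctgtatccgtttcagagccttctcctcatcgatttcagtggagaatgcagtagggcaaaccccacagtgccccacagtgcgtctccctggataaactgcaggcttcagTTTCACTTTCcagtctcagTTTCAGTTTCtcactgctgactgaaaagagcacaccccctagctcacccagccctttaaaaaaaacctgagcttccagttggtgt
Ifit3, chr19:34583279-34583528, plus strand: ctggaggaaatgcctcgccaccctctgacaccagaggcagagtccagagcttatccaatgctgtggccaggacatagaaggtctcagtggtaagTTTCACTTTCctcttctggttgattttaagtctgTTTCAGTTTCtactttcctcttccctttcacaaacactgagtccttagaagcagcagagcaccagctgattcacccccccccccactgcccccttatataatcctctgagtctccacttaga
Rsad2, chr12:26456453-26456702, minus strand: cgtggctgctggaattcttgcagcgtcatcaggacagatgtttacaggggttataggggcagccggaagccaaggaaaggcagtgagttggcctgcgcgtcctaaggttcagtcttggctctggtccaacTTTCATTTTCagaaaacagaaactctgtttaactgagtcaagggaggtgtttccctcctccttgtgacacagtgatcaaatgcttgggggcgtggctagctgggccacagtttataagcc
Ifi47, chr11:49076337-49076586, plus strand: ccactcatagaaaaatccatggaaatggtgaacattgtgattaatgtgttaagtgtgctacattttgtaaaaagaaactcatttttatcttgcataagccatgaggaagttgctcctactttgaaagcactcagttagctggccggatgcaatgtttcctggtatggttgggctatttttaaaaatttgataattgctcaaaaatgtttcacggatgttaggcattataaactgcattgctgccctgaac
The Isg15 window carries 3 overlapping matches whose first bases lie 78, 72 and 66 bases before the start. Ifit1 carries matches at 104 and 85 bases and Ifit3 at 156 and 122 bases, all on the other strand. The single Rsad2 match lies at 120 bases, also on the other strand.

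Many members share a chromosome, and some of these lie close together (positions from GENCODE M21 on mm10). Of the 38, 6 are on chromosome 16 (Mx1, Mx2, Rtp4, Parp9, Parp14 and Dtx3l), the 5 Oas genes are on chromosome 5 and the 3 Ifit genes on chromosome 19. Others are far apart, with Rtp4 starting at 23520291, Parp14 at 35832874 and Mx1 at 97447035 on chromosome 16. Oasl2 starts at 114896936 and Oas2 at 120730333 on chromosome 5. Oasl1 (ENSMUSG00000041827) spans chr5:114923240-114937915 on the plus strand, Ifi204 (ENSMUSG00000073489) chr1:173747293-173766943 on the minus strand and Ifi47 (ENSMUSG00000078920) chr11:49076587-49096974 on the plus strand. Rsad2 (chr12:26442746-26456452, minus) and Cmpk2 (chr12:26469204-26479837, plus) are neighbors read in opposite directions.

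The libraries held 24530070 to 34110392 estimated counts. The macrophage genes Adgre1, Csf1r, Cd68, Itgam and Lyz2 were detected in every library, and the summed level of 10 macrophage markers lay between 18500 and 47500 CPM, the count scaled to a common library size. Summed T cell markers reached 92.7 and 102 CPM in the isotype libraries 3 of Tim-4high and Tim-4low cells, against at most 22.1 CPM in the other 16 libraries. NK cell markers reached 62.8 and 67.6 CPM in the same libraries, against at most 13.8 CPM elsewhere. The B cell sum was highest, at 262 and 840 CPM, in the no-tumor libraries 1. The part of these cells in the results below was not tested, and in bulk RNA a change in the number of cells of a type and a change in RNA per cell cannot be told apart.

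Both no-tumor libraries 2 stood apart from their groups for these genes. The member counts made up 0.326% of no-tumor Tim-4high library 2, against 0.161% in the lowest library of that group. Library 2 was the highest of the 3 for 36 of 38 members in Tim-4high cells and for 37 of 38 in Tim-4low cells, whereas it was the highest for 30.7% and 29.6% of all genes. The median member was 1.94-fold and 1.69-fold above the mean of libraries 1 and 3.
Ifit2, which binds viral RNA, was at 2.02, 34.2 and 1.06 CPM in no-tumor Tim-4high libraries 1, 2 and 3 and at 4.19, 22.9 and 3.28 CPM in the Tim-4low libraries. The library 2 value was 20.9-fold and 6.01-fold above the mean of the other two. Ifi44 was 11.8-fold and 11.4-fold above it, and Ifi47, an interferon-inducible GTPase, 6.21-fold and 3.08-fold. The exceptions were Isg20, an RNA exonuclease gene, at 0.8-fold and 0.847-fold, and Ifi27l2a at 0.956-fold and 1.07-fold. The ratios of the 38 members in the 2 populations followed each other (Pearson r 0.94, Spearman rho 0.938, across genes, which are not independent replicates).
The same libraries were high for genes known to respond to interferon gamma. Of these, 29 of 31 listed genes in Tim-4high and 23 of 31 in Tim-4low cells were over 2-fold above libraries 1 and 3, against 3.06% and 1.58% of all genes. The median of the listed genes was 7.4-fold and 3.33-fold. The list was chosen with earlier results of these data known, so it is no independent support. In libraries 2 the median T cell marker was at 0.672-fold and 0.609-fold, the median NK cell marker at 0.721-fold and 0.921-fold and the median macrophage marker at 1.02-fold and 1.03-fold. Among the 8 NK cell markers Gzma was at 2.37-fold and 1.59-fold and Prf1 at 1.34-fold and 1.13-fold, from levels of at most 1.03 CPM. Ifng, the interferon gamma gene, was at 0, 0.197 and 0 CPM in no-tumor Tim-4high libraries 1 to 3 and at 0.174, 0.219 and 0 CPM in the Tim-4low libraries.

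**Figure D1:**
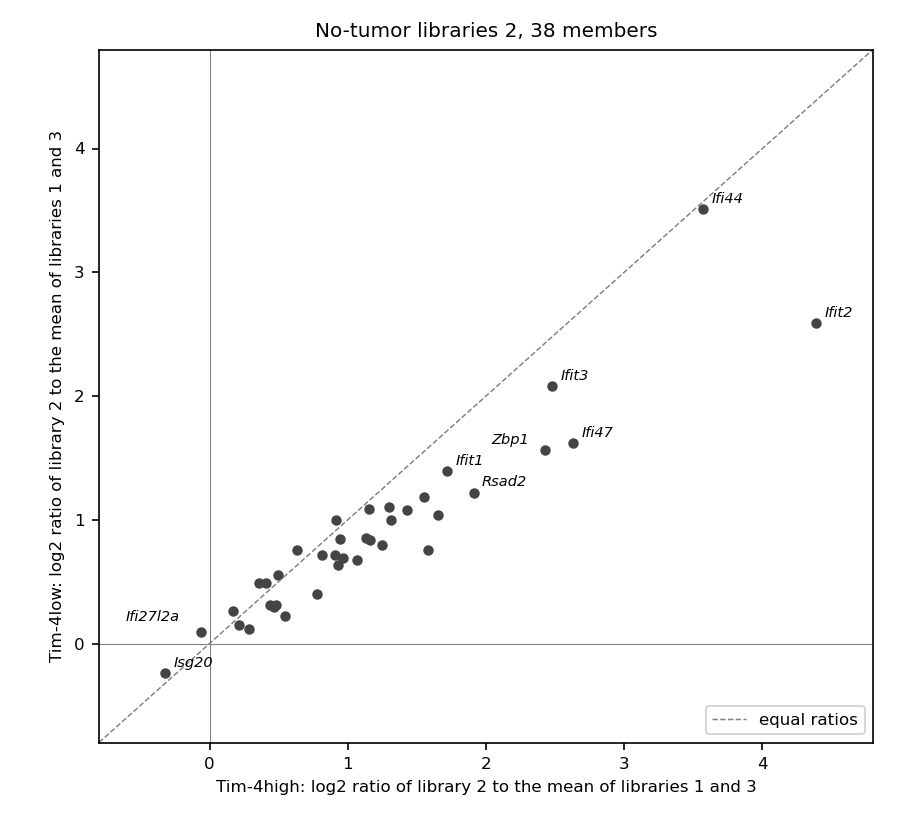
Log2 ratio of the level in no-tumor library 2 to the mean of libraries 1 and 3, for each member, in Tim-4high cells (horizontal axis) and Tim-4low cells (vertical axis), with a dashed line of equal ratios. Ifit2 and Ifi44 lie farthest from 0, and Isg20 lies below 0 on both axes.

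Within the tumor groups the members were far more even. The median coefficient of variation of the members was 42.7% and 33.3% in the no-tumor Tim-4high and Tim-4low groups, and 8.06%, 6.31%, 8.45% and 11.7% in the isotype Tim-4high, isotype Tim-4low, anti-Tim-4 Tim-4high and anti-Tim-4 Tim-4low groups. Over all genes the median in the no-tumor groups was 13.6% and 12%. The isotype mean was above the mean of no-tumor libraries 1 and 3 for 31 of 38 members in each population, and above no-tumor library 2 for 17 in Tim-4high and 24 in Tim-4low cells.

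**Figure D2:**
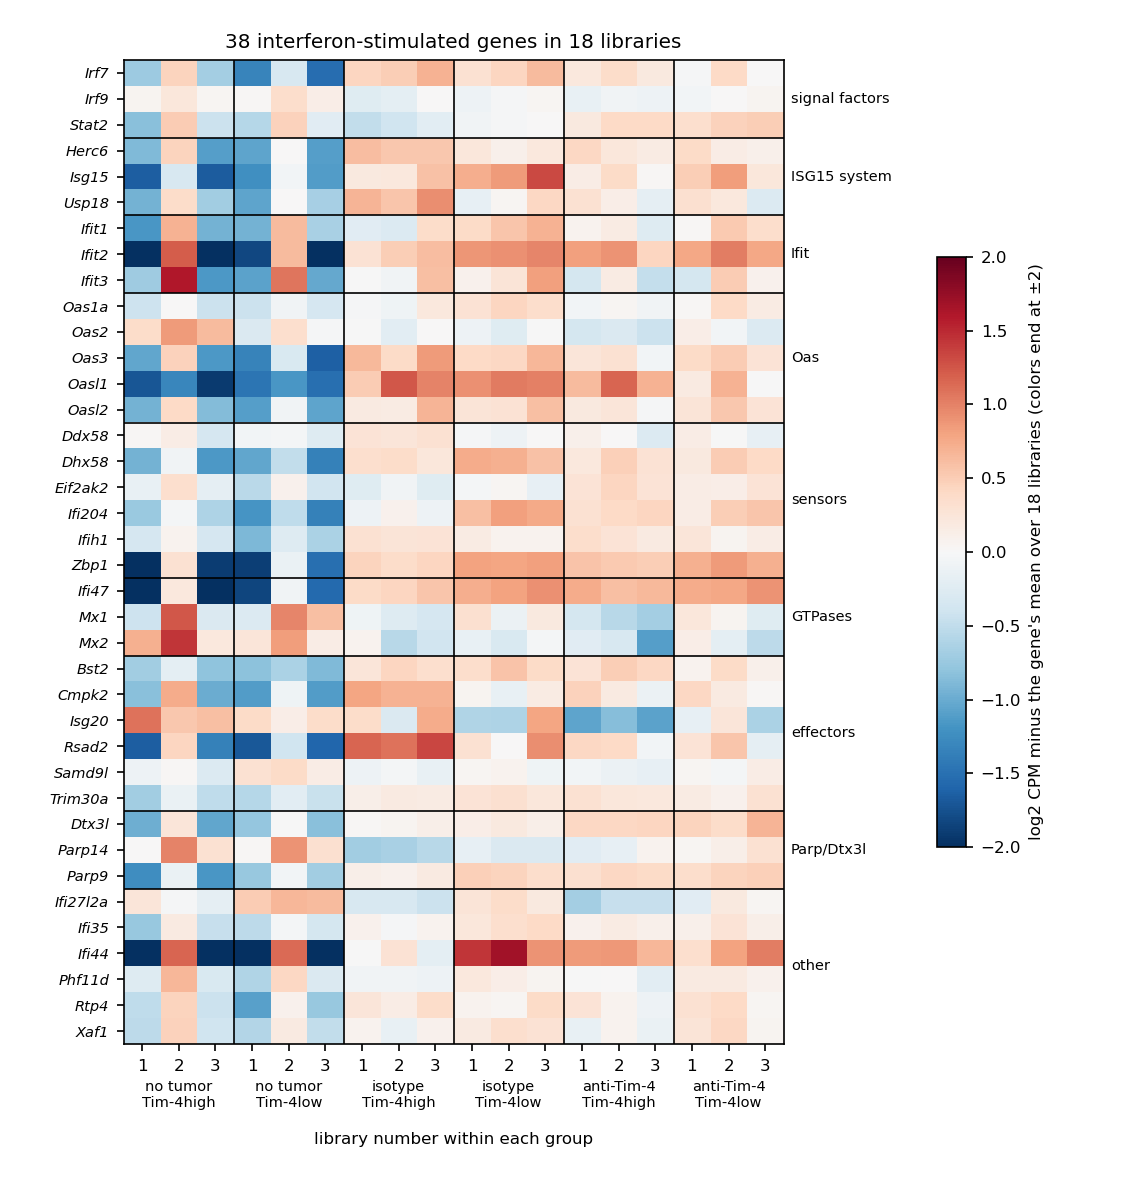
Log2 CPM of each of the 38 members minus its mean over 18 libraries, with colors ending at 2 units either way, columns being libraries and rows grouped by role. No-tumor libraries 2 are above libraries 1 and 3 of their groups for 36 (Tim-4high) and 37 (Tim-4low) members.

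Per kilobase of merged exon, the order of the levels differed between groups. In isotype Tim-4low cells the highest were Ifi47 (125 ± 8.0 CPM per kb, SD, n = 3), Ifi27l2a (110 ± 6.8), Bst2 (110 ± 9.0) and Ifi204 (83.4 ± 6.5), the first 3 of which lay within 2 SD of each other. Bst2 encodes tetherin, which holds budding virus at the cell surface, and Ifi204 a DNA sensor. In isotype Tim-4high cells Bst2 (103 ± 6.8) and Ifi47 (97.8 ± 6.1) led, within the spread of each other, followed by Ifi27l2a (71.1 ± 3.1). In no-tumor Tim-4high cells Ifi27l2a (92.7 ± 14) stood above Bst2 (55.9 ± 13) and Rtp4 (43.4 ± 17), the latter 2 not apart beyond their spread. In no-tumor Tim-4low cells Ifi27l2a (138 ± 7.7) was the highest. Ifi44 and Mx2 were the lowest members in both isotype groups, with 0.414 and 0.673 CPM per kb in Tim-4high cells and 1.04 and 0.723 CPM per kb in Tim-4low cells.

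The first comparison asks how the members differ between macrophages of tumor-bearing mice given isotype antibody and those of mice without tumor. In Tim-4high cells 14 members rose and 5 fell of 38, where 27.3% of all genes tested rose and 24.1% fell (51.5% either way). In Tim-4low cells 17 rose and 3 fell, where 25.2% of all genes rose and 24.6% fell (49.8% either way). All isotype libraries were above all no-tumor libraries for 13 members and below them for 5 in Tim-4high cells (29.5% and 28.1% of genes), and for 20 and 4 in Tim-4low cells (29.1% and 28.9%). The median log2 fold change of the members was 0.37 in Tim-4high and 0.67 in Tim-4low cells, against -0.01 and -0.02 over all genes. A group of 11 members rose in both populations (Isg15, Oas3, Oasl1, Rsad2, Irf7, Ifih1, Dhx58, Ifi47, Parp9, Bst2 and Trim30a), and Ifi27l2a and Parp14 fell in both. The share of all genes called in both is not given here, so this count and the 26 below have no background beside them. The calls are from edgeR's quasi-likelihood test with Benjamini-Hochberg adjustment over all genes tested, at an adjusted p below 0.05. Without both no-tumor libraries 2, 27 members rose and 4 fell in Tim-4high cells (25.5% and 22.4% of genes) and 29 rose and 2 fell in Tim-4low cells (23% and 21.7%), with 26 rising in both. Those libraries were left out after the members were seen to be highest in them, so more rises follow from that choice. The larger counts are no separate support for a rise.

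**Figure D3:**
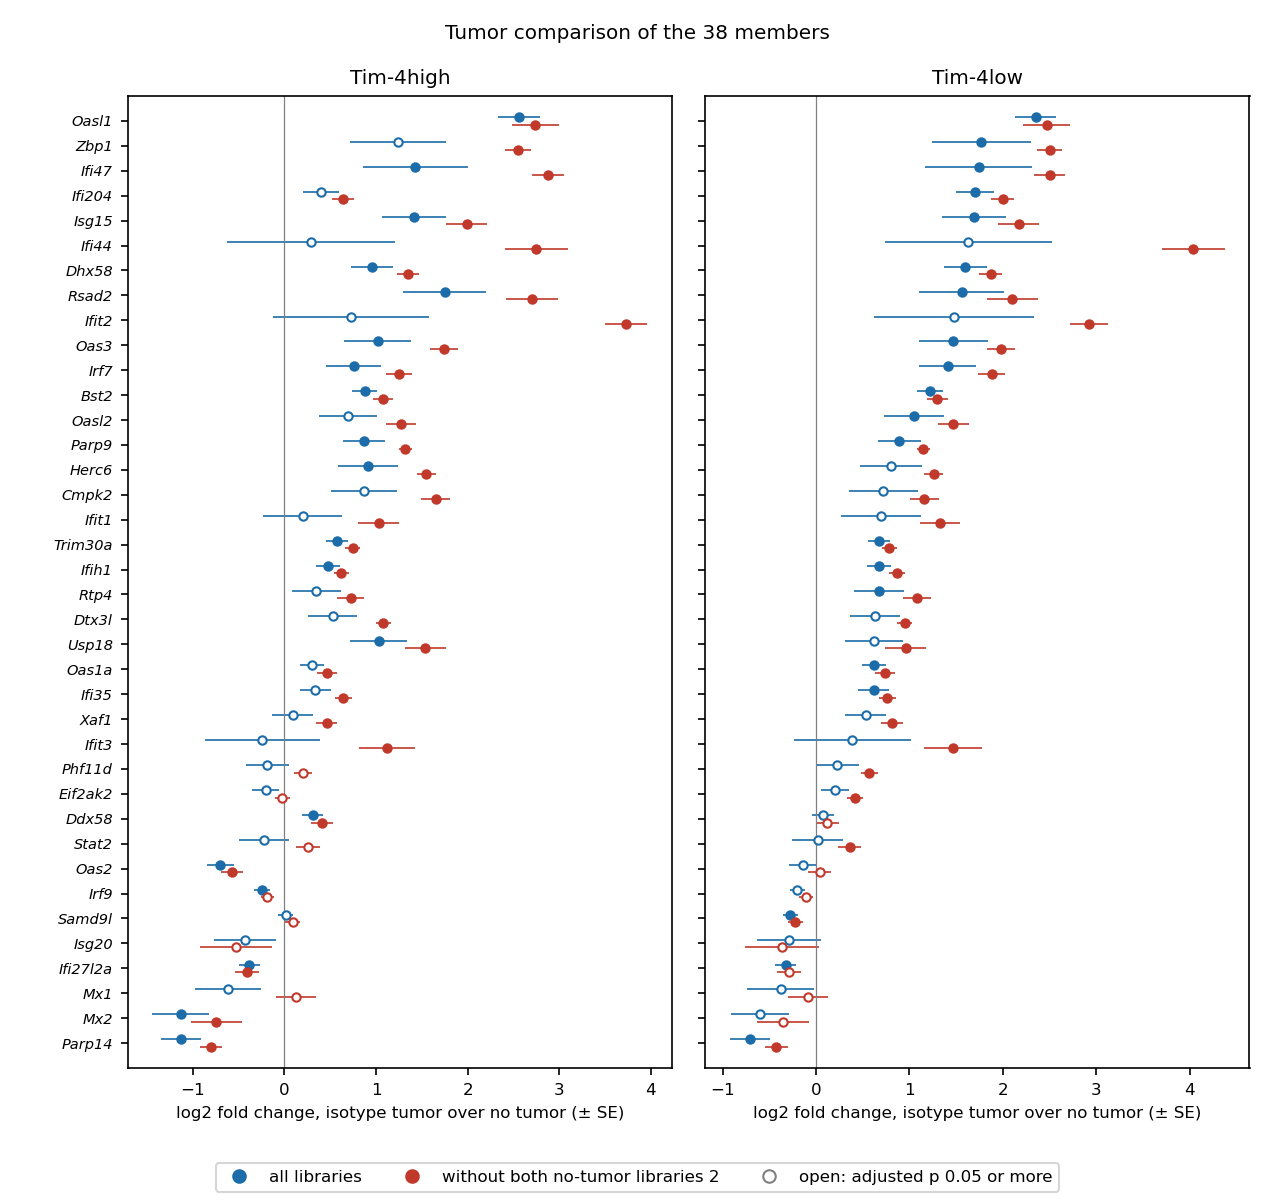
Log2 fold change ± SE of each member, isotype tumor over no tumor, in Tim-4high and Tim-4low cells, with all libraries in blue, without both no-tumor libraries 2 in red, and open symbols for adjusted p of 0.05 or more. The red values of Ifit2 are 3.73 in Tim-4high and 2.92 in Tim-4low cells, against 0.73 and 1.48 with all libraries. The libraries left out were chosen after the members were seen to be high in them.

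Among the signal factors, Irf7 was the one to rise in both populations. Irf7 was at 48.4, 109 and 49.8 CPM in no-tumor and 108, 113 and 129.7 CPM in isotype Tim-4high libraries 1 to 3, and at 32.0, 63.6 and 27.6 against 98.0, 107 and 123 CPM in Tim-4low libraries. The Tim-4low groups did not overlap, and the Tim-4high groups did. The log2 fold change was 0.76 ± 0.30 (adjusted p = 0.0454) in Tim-4high and 1.41 ± 0.31 (adjusted p = 0.00125) in Tim-4low cells. Irf9, the DNA-binding part of the complex, fell by 0.25 on the log2 scale in Tim-4high cells (adjusted p = 0.023). Irf9 was at 76.3, 85.8 and 75.8 CPM in no-tumor and 62.4, 64.5 and 73.8 CPM in isotype Tim-4high libraries, which did not overlap. Stat2 did not pass the test in either population.

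Of the ISG15 system, Isg15, a ubiquitin-like protein joined to other proteins, rose in both populations. Isg15 was at 3.85, 9.59 and 3.81 CPM in no-tumor and 13.7, 13.9 and 18.1 CPM in isotype Tim-4high cells, and at 5.13, 11.6 and 5.54 against 19.9, 21.8 and 30.1 CPM in Tim-4low cells. Every isotype library was above every no-tumor library, with log2 fold changes of 1.41 ± 0.35 (adjusted p = 0.00335) and 1.69 ± 0.34 (adjusted p = 0.000765). Usp18, the protease that removes Isg15, rose by 1.03 ± 0.31 and the ligase gene Herc6 by 0.91 ± 0.33 in Tim-4high cells (adjusted p 0.0112 and 0.0297). In Tim-4low cells they gave 0.62 ± 0.31 and 0.80 ± 0.33 and did not pass (adjusted p 0.108 and 0.0524).

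The Ifit genes, whose products bind foreign RNA, passed in neither population with all libraries. Ifit2 was at 18.1, 20.8 and 22.7 CPM in isotype Tim-4high and 27.4, 28 and 29.2 CPM in isotype Tim-4low cells, below and above the no-tumor libraries 2 given earlier. Without both no-tumor libraries 2 all 3 rose in both populations, Ifit2 by 3.73 ± 0.23 in Tim-4high and 2.92 ± 0.21 in Tim-4low cells, Ifit1 by 1.03 and 1.33, and Ifit3 by 1.12 and 1.47. Since those libraries were picked for their high member levels, larger rises are built into this omission. Why the members were high in them was not tested.

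The Oas family, whose products respond to double-stranded RNA, held the member with the smallest p. Oasl1, which limits translation of Irf7, was at 2.88, 3.79 and 2.49 CPM in no-tumor and 13.3, 22.1 and 18.6 CPM in isotype Tim-4high cells. In Tim-4low cells it was at 3.42, 4.20 and 3.31 against 17.7, 19.3 and 18.8 CPM. The groups did not overlap, and the rises of 2.56 ± 0.23 (adjusted p = 4.07e-07) and 2.35 ± 0.22 (adjusted p = 7.95e-07) ranged from 2.38 to 2.75 and from 2.3 to 2.48 with 1 library left out. Oas3 rose by 1.02 ± 0.37 and 1.47 ± 0.37, and in Tim-4low cells Oas1a (0.62 ± 0.13) and Oasl2 (1.05 ± 0.32) rose too. In Tim-4high cells the latter 2 gave 0.30 ± 0.13 and 0.69 ± 0.32 and did not pass. Oas2 fell in Tim-4high cells, from 104, 146 and 124 to 79.7, 69.3 and 81.0 CPM with no overlap (-0.70 ± 0.15, adjusted p = 0.00109), and gave -0.14 ± 0.15 in Tim-4low cells.

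Of the 6 sensors of viral RNA and DNA, 3 rose in Tim-4high and 4 in Tim-4low cells. Ifih1 (MDA5) rose by 0.47 ± 0.13 and 0.68 ± 0.13, and its regulator Dhx58 by 0.95 ± 0.23 and 1.60 ± 0.23, in Tim-4high and Tim-4low cells. Dhx58 was at 32.6, 59.4 and 28.1 against 78.8, 80.8 and 72.8 CPM in Tim-4high cells and at 30.3, 44.4 and 24.6 against 104, 102 and 94.3 CPM in Tim-4low cells, with no overlap. Ddx58 (RIG-I) rose in Tim-4high cells (0.31 ± 0.12, adjusted p = 0.0378) and gave 0.08 ± 0.12 in Tim-4low cells.
Ifi204 was at 107, 174 and 117 CPM in no-tumor and 167, 191 and 167 CPM in isotype Tim-4high libraries, which overlapped. In Tim-4low cells it was at 78.6, 126 and 70.4 against 272, 317 and 303 CPM, with no overlap and a rise of 1.70 ± 0.20 (adjusted p = 6.65e-06). Zbp1, a sensor of Z-form nucleic acid, rose in Tim-4low cells (1.77 ± 0.53, adjusted p = 0.0119) and gave 1.24 ± 0.53 (adjusted p = 0.0599) in Tim-4high cells, where all isotype libraries were higher. Eif2ak2, the kinase PKR, passed in neither.

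Of the GTPases, Ifi47 rose and Mx2 fell. Ifi47 was at 24.8, 204 and 40.9 CPM in no-tumor and 229.9, 237 and 259 CPM in isotype Tim-4high cells, and at 49.6, 169 and 59.8 against 292, 307 and 331 CPM in Tim-4low cells. All isotype libraries were higher, with 1.43 ± 0.57 (adjusted p = 0.0474) and 1.74 ± 0.57 (adjusted p = 0.0198). DESeq2 gave Ifi47 changes of 1.42 and 1.74 and no p-value, so its call rests on edgeR. Mx2, an antiviral GTPase, fell by 1.13 on the log2 scale in Tim-4high cells (adjusted p = 0.00667), from 4.78, 7.86 and 3.36 to 3.07, 1.99 and 2.23 CPM. Mx1 passed in neither population.

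**Figure D4:**
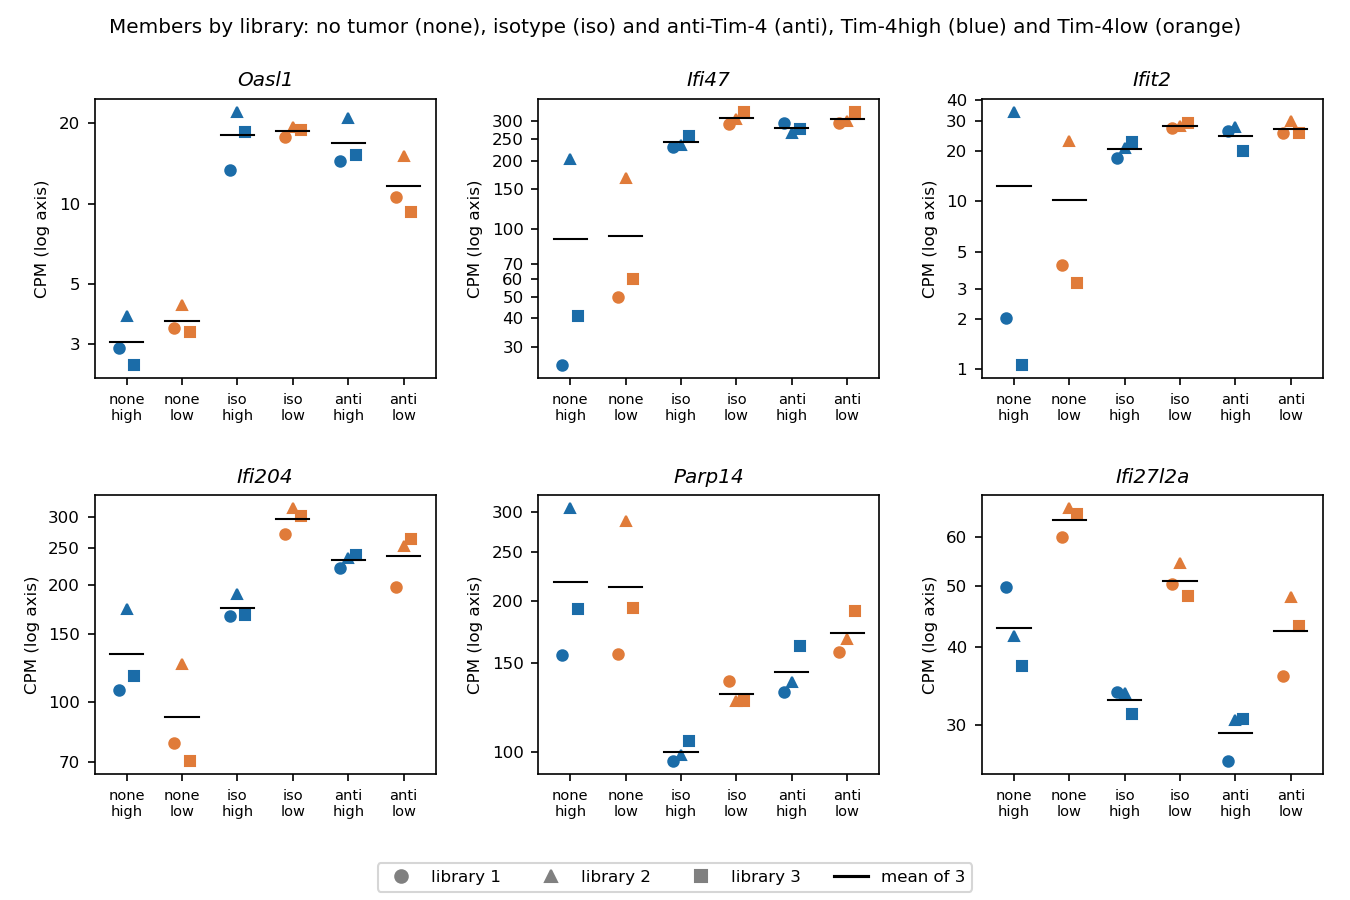
CPM of 6 members in each of 18 libraries on a log axis, Tim-4high in blue and Tim-4low in orange, with circles, triangles and squares for libraries 1, 2 and 3 and a bar at the mean of each group. In the no-tumor groups the Ifit2 and Ifi47 triangles lie above the other symbols, and for Oasl1 the symbols lie close together.

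Of the 6 effectors 3 rose in each population and 1 fell in Tim-4low cells. Bst2 rose by 0.88 ± 0.14 (adjusted p = 6.91e-05) and 1.22 ± 0.14 (adjusted p = 3.8e-06), from 45.5, 63.8 and 42.1 to 86.6, 98.8 and 92.8 CPM in Tim-4high and from 41.4, 47.3 and 39.6 to 93.6, 109 and 96.3 CPM in Tim-4low cells. The groups did not overlap. Rsad2 (viperin), which blocks viral replication, rose by 1.75 ± 0.45 and 1.56 ± 0.46, and Trim30a by 0.57 ± 0.12 and 0.68 ± 0.12. Rsad2 was at 6.24, 26.4 and 7.70 against 44.1, 41.7 and 49.7 CPM in Tim-4high cells. Cmpk2, which lies beside Rsad2 on chromosome 12, gave 0.87 ± 0.37 (adjusted p = 0.0579) in Tim-4high cells. Samd9l, a restriction factor, fell in Tim-4low cells by 0.27 on the log2 scale (adjusted p = 0.0124), from 154, 162 and 137 to 127, 130.3 and 117 CPM. Isg20 passed in neither.

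Parp9 and Dtx3l form a complex, and their genes overlap on opposite strands of chromosome 16, so reads in the overlap cannot be told apart unless the counting used strand. Parp9 rose by 0.87 ± 0.23 and 0.89 ± 0.23. Parp14, an ADP-ribosyltransferase, fell from 156, 306 and 192 to 95.7, 98.7 and 105 CPM in Tim-4high and from 157, 288 and 193 to 138, 126 and 126 CPM in Tim-4low cells. The groups did not overlap, and the changes were -1.13 ± 0.22 (adjusted p = 0.000511) and -0.71 ± 0.22 (adjusted p = 0.0133). Of the other genes, Ifi27l2a fell by 0.38 and 0.33 on the log2 scale. Ifi35 (0.62) and Rtp4 (0.67) rose in Tim-4low cells, and Ifi44, Xaf1 and Phf11d passed in neither population.

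In Tim-4high cells 10 of these calls held with each of the 6 libraries left out in turn: Isg15, Oasl1, Rsad2, Ifih1, Dhx58, Parp9, Bst2, Trim30a, Oas2 and Parp14. Leaving out no-tumor Tim-4high library 1 ended 7 calls (Oas3, Usp18, Irf7, Ddx58, Ifi27l2a, Ifi47 and Herc6, adjusted p up to 0.181), library 3 ended 6 of the same without Ifi27l2a (up to 0.185) and library 2 ended Mx2 (0.0527) and Irf9 (0.108). Leaving out isotype Tim-4high libraries 1, 2 and 3 ended 6, 5 and 5 calls, among them Irf7, Ddx58, Ifi47 and Herc6 each time. Without no-tumor Tim-4high library 2 the rises were 2.7 for Rsad2, 1.74 for Oas3, 1.56 for Herc6 and 2.88 for Ifi47, and 28 members were called. In Tim-4low cells 13 calls, all rises, held in every omission. Leaving out no-tumor Tim-4low libraries 1, 2 and 3 ended 4, 3 and 5 calls and isotype Tim-4low libraries 1, 2 and 3 ended 2, 1 and 3, among Oasl2, Ifi27l2a, Ifi47, Rtp4, Zbp1, Parp14 (-0.41, adjusted p = 0.116, without no-tumor library 2) and Samd9l. Without no-tumor Tim-4low library 2, Ifi47 and Zbp1 both rose by 2.51.
Marker lists moved in the same comparison. T cell markers rose for 8 of 9 in Tim-4high and 7 of 9 in Tim-4low cells, NK cell markers for 5 and 6 of 8, and monocyte markers for 5 and 6 of 9 with 1 falling in each, while all 8 B cell markers fell. Mesothelial and fibroblast markers rose for 8 of 8 in each population (median log2 fold change 5.8 and 5.55, summed level at most 0.814 CPM in no-tumor and 9.36 to 75.1 CPM in isotype libraries). Neutrophil markers rose for 7 of 9 with 1 falling in Tim-4high and for 5 of 9 in Tim-4low cells, and 4 of 5 mast cell markers fell in each. The summed monocyte level was 632 to 1210 CPM in no-tumor and 7980 to 8240 CPM in isotype Tim-4high cells, of which Chil3 made up 0.632 to 18.3 and 7060 to 7450 CPM. The other 8 monocyte markers summed to 614 to 1200 and 787 to 921 CPM in Tim-4high cells and to 2490 to 3280 and 2330 to 2490 CPM in Tim-4low cells. Summed plasmacytoid dendritic cell markers were at 64.3 to 173 CPM in no-tumor and 39.4 to 58.8 CPM in isotype libraries. Among them Tcf4 reached 98.5 CPM and Spib 78.9 CPM, both in no-tumor libraries. Siglech was at most 2.02 CPM in any library and went the other way, at most 0.118 CPM in no-tumor and 0.254 to 2.02 CPM in isotype libraries. The part of these cells in the member changes was not tested.

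The difference between the populations in the tumor effect was tested directly. Ifi204 passed, with a rise larger by 1.30 ± 0.28 on the log2 scale in Tim-4low cells (adjusted p = 0.017), and no other member did, where 1.32% of all genes were called higher and 2.21% lower (3.53% either way). The call was lost without no-tumor Tim-4low library 3 (1.15, adjusted p = 0.0503), isotype Tim-4high library 3 (1.28, 0.0514) or isotype Tim-4low library 2 (1.26, 0.0514), and without both isotype libraries 3 (1.25, 0.0889). With library number as a block, since same-numbered libraries within a condition deviate together, Ifi204 gave 1.31 (adjusted p = 4.71e-05), and 9 members were higher and 1 lower (4.61% and 6.58% of genes). The higher ones were Ifi204, Irf7 (0.65), Dhx58 (0.62), Oas2 (0.57), Eif2ak2 (0.41), Parp14 (0.41), Phf11d (0.41), Xaf1 (0.42) and Ifi44 (1.31), and Samd9l was lower (-0.29). Without both no-tumor libraries 2, Ifi204 gave 1.36 ± 0.16 (adjusted p = 0.000671).

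In mice given anti-Tim-4, against mice without tumor, 11 members rose and 7 fell in Tim-4high cells (27.4% and 25.5% of genes, 52.9% either way) and 20 rose and 2 fell in Tim-4low cells (23.8% and 22.9%, 46.7% either way). The groups did not overlap for 11 higher and 5 lower members in Tim-4high cells (30.8% and 29.8% of genes) and for 21 and 2 in Tim-4low cells (26.5% and 26.7%). These comparisons share the no-tumor libraries with the ones above. Oasl1 rose by 2.46 ± 0.23 and 1.68 ± 0.22, Bst2 by 0.94 ± 0.14 and 0.97 ± 0.14, and Ifi204 by 0.81 ± 0.20 and 1.38 ± 0.20. Isg20 fell by 1.74 on the log2 scale in Tim-4high cells (adjusted p = 0.000779), from 10.6, 7.22 and 7.55 to 2.41, 2.77 and 2.38 CPM with no overlap, and Oas2 fell by 0.98. Mx2 (-1.37), Ifi27l2a (-0.56), Parp14 (-0.60), Mx1 (-0.91) and Irf9 (-0.22) fell too, and Ifi27l2a (-0.59) and Samd9l (-0.23) fell in Tim-4low cells. Leaving out no-tumor Tim-4high library 2 ended the calls of Mx1 (-0.17, adjusted p = 0.616), Irf9 (0.173) and Parp14 (-0.27, adjusted p = 0.25), and brought the count to 29. In all, 12 of 18 calls in Tim-4high and 13 of 22 in Tim-4low cells held in every omission. Without no-tumor library 2, Ifi47 and Zbp1 rose by 3.09 and 2.66 in Tim-4high and by 2.52 and 2.47 in Tim-4low cells, and Isg15 by 1.85 in Tim-4high cells. Single omissions ended 3 to 5 calls in Tim-4high cells and 1 to 9 in Tim-4low cells, the 9 without no-tumor Tim-4low library 1. Without both no-tumor libraries 2 the counts were 27 and 4 in Tim-4high and 29 and 1 in Tim-4low cells, and Parp14 no longer passed (-0.27, adjusted p = 0.0802). The shares of all genes called in that fit are not given here, so these counts have no background beside them. As above, more rises follow from the choice of the libraries left out.

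The antibody comparison sets anti-Tim-4 against isotype antibody in tumor-bearing mice. In Tim-4high cells 1 member rose and 1 fell of 38, where 4.3% of genes rose and 3.67% fell (7.97% either way). Isg20 was at 6.45, 4.09 and 8.32 CPM in isotype and 2.41, 2.77 and 2.38 CPM in anti-Tim-4 libraries, with no overlap and a change of -1.32 ± 0.36 (adjusted p = 0.0378). Eif2ak2 rose from 50.7, 57.1 and 51.1 to 72.9, 80.7 and 72.9 CPM (0.51 ± 0.15, adjusted p = 0.0465). The Eif2ak2 call was lost in all 6 omissions (adjusted p 0.0626 to 0.157) and the Isg20 call in all but that of isotype library 2 (up to 0.163). Neither held without both isotype libraries 3, which carry the high T and NK cell sums (Isg20 -1.06, adjusted p = 0.0602, Eif2ak2 0.49, adjusted p = 0.154). In the same comparison 4 of 8 mesothelial and fibroblast markers and 3 of 9 neutrophil markers fell. Of the 10 macrophage markers, Icam2 (-1.06, adjusted p = 0.0361) and Cd68 (-0.40, adjusted p = 0.03) fell by edgeR, and no other passed. Tim-4low over Tim-4high cells, Icam2 gave -1.62 with isotype antibody and -0.09 with anti-Tim-4. Adgre1 gave -1.85 and -0.28, and Timd4 -3.15 and -3.13. The part of these marker shifts in the member result was not tested.
Beyond the calls, 11 members were higher and 11 lower in all 3 anti-Tim-4 libraries than in all 3 isotype libraries, where 20% and 19.3% of all genes were. Stat2 was at 63.1, 67.2 and 76.6 against 102, 117 and 116 CPM (0.69 ± 0.27, adjusted p = 0.121), and Parp14 at 95.7, 98.7 and 105 against 132, 138 and 162 CPM (0.53 ± 0.22, adjusted p = 0.137). Rsad2 was at 44.1, 41.7 and 49.7 against 26.1, 25.8 and 18.8 CPM (-0.94 ± 0.44, adjusted p = 0.191), and Usp18 and Cmpk2 gave -0.62 and -0.53. The authors' deposited table lists, at a false discovery rate below 0.05, 8 members higher (Stat2, Ifi44, Ifi204, Ifi47, Eif2ak2, Parp9, Parp14 and Dtx3l) and 9 lower (Isg20, Oas2, Oas3, Rsad2, Usp18, Irf7, Ddx58, Cmpk2 and Herc6) in this comparison. The share of all genes below that rate in the deposited table is not given here, so these counts have no background beside them. Without both no-tumor libraries 2, which do not enter this contrast but enter its estimate of spread, edgeR called 6 higher and 4 lower. The shares of all genes in that fit are given with the processing.

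**Figure D5:**
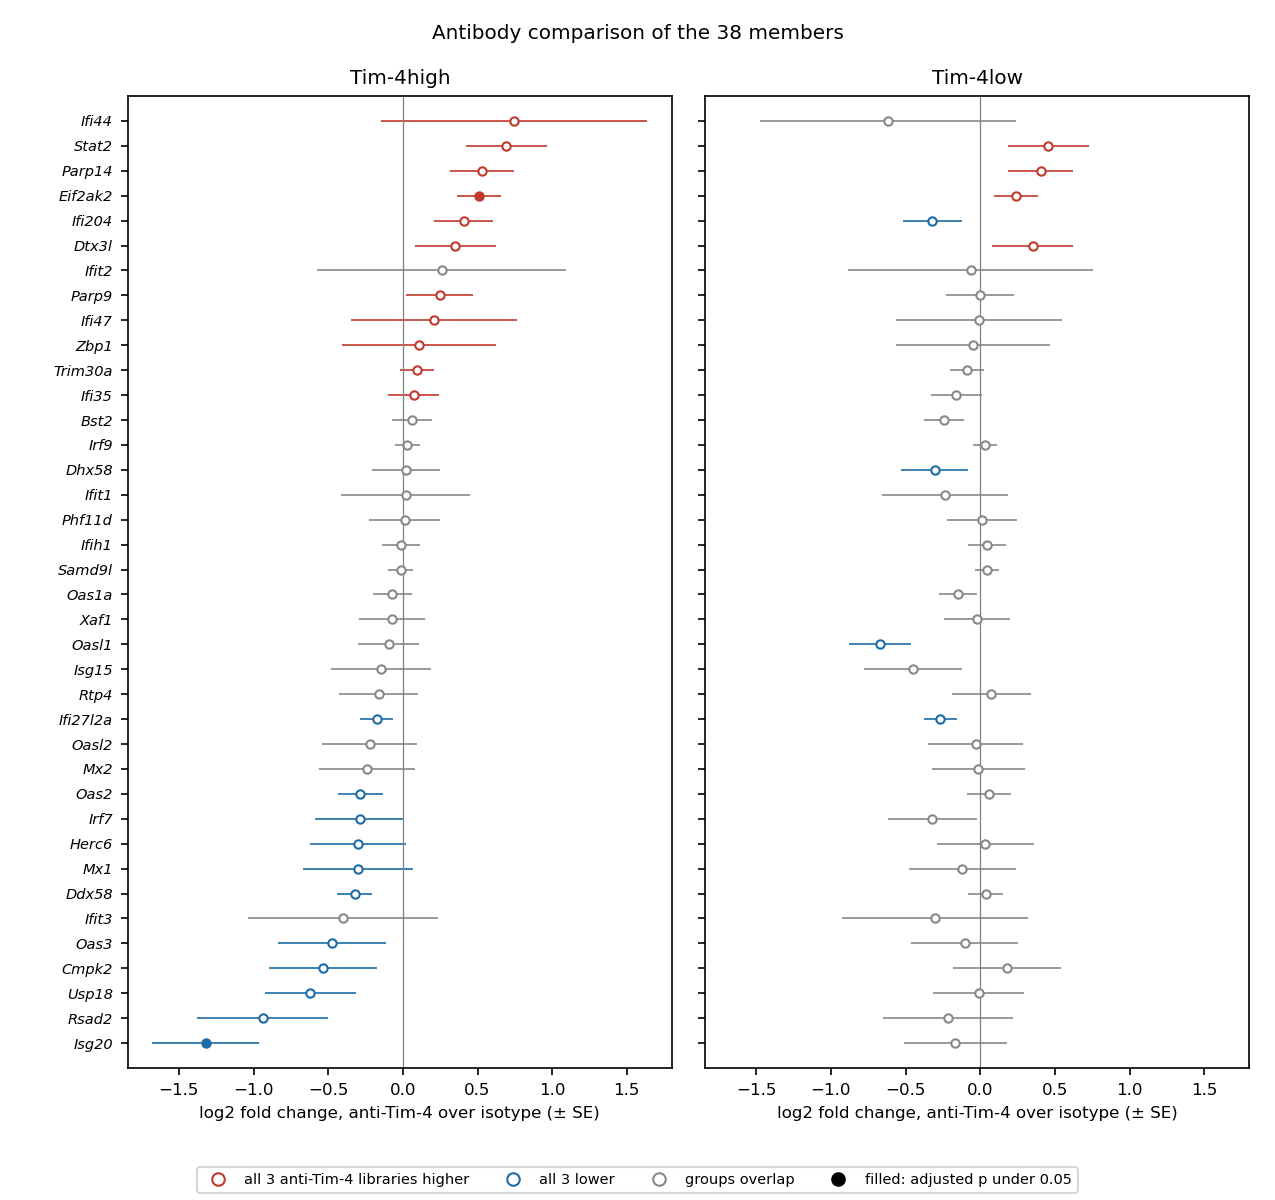
Log2 fold change of each member between anti-Tim-4 and isotype libraries, for Tim-4high and for Tim-4low cells, in red where all 3 anti-Tim-4 libraries are higher, blue where all are lower and gray where the groups overlap, with filled symbols for called members. Isg20 and Eif2ak2 in Tim-4high cells are the filled symbols.

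In Tim-4low cells edgeR called none of the 38 members at adjusted p below 0.05, where 0.223% of genes rose and 0.102% fell (0.325% either way), 2 members had an unadjusted p below 0.05, and DESeq2 called 0. Oasl1 was at 17.7, 19.3 and 18.8 CPM in isotype and 10.6, 15.1 and 9.29 CPM in anti-Tim-4 libraries, with no overlap (-0.67 ± 0.21, adjusted p = 0.198). All 3 anti-Tim-4 libraries were also lower for Ifi204, Dhx58 and Ifi27l2a and higher for Stat2, Parp14, Eif2ak2 and Dtx3l, where 9.96% and 8.02% of all genes were lower and higher. The difference of the antibody effect between populations was called for none of the members by edgeR or by DESeq2 (1.67% and 1.26% of genes, 2.93% either way, 3 members at unadjusted p below 0.05), the lowest adjusted p being 0.155 for Ifi204 (-0.73 ± 0.28). With library number as a block 7 members were higher and 4 lower (8.4% and 7.31% of genes), led by Ifi204 (-0.74, adjusted p = 0.000723), Ifi44 (-1.37, 0.00391) and Cmpk2 (0.73, 0.00729). The others were Usp18, Ddx58, Isg20, Rsad2, Oas2 and Herc6 higher and Oasl1 and Dhx58 lower.

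Tim-4low and Tim-4high cells were compared within each condition. In mice without tumor 2 members were higher and 2 lower in Tim-4low cells, where 12.8% of genes were higher and 11.8% lower (24.6% either way). All Tim-4low libraries were higher for 2 members and lower for 2 (17.7% and 17.2% of genes). Ifi27l2a was at 49.9, 41.6 and 37.2 CPM in Tim-4high and 59.9, 66.8 and 65.2 CPM in Tim-4low libraries (0.57 ± 0.11, adjusted p = 0.00142), and Samd9l at 116, 126 and 103 against 154, 162 and 137 CPM (0.39 ± 0.08, adjusted p = 0.0026). Oas2 was lower, at 104, 146 and 124 against 65.6, 101 and 78.9 CPM (-0.60 ± 0.15, adjusted p = 0.00727). These 3 did not overlap and held in every omission of 1 library. With the no-tumor groups fitted alone, the Oas2 and Samd9l calls were lost and that of Ifi27l2a held. Ifih1 was lower by 0.38 on the log2 scale (adjusted p = 0.0426), and its call was lost without Tim-4high library 2 (0.219), Tim-4low library 1 (0.174) or Tim-4low library 3 (0.131). Irf7 gave -0.75 ± 0.30 (adjusted p = 0.086) and Ifi204 -0.54 ± 0.20 (adjusted p = 0.0599). With library number as a block 4 members were higher and 12 lower (17.8% and 16.6% of genes), led by Irf7 (-0.74, adjusted p = 5.47e-06), Oas2 (-0.61, adjusted p = 1.83e-05) and Ifi204 (-0.55, adjusted p = 0.000132). Leaving out Tim-4high library 2 and leaving out Tim-4low library 2 gave 9 called members each. Over the 6 single omissions 2 to 8 members were higher and 1 to 7 lower, so the direction depended on the library left out. The sign of Ifit2 turned in this way, as given with the processing. Without both libraries 2 the counts were 6 higher and 5 lower, and all of these are counts from fewer libraries.

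In the isotype group Ifi204 and Ifi27l2a were higher in Tim-4low cells, where 11.3% of genes were higher and 12.9% lower (24.1% either way). All Tim-4low libraries were higher for 17 members and lower for 6 (21.3% and 21.9% of genes). By edgeR 0 members were lower, 4 had an unadjusted p below 0.05 in either direction, and DESeq2 also called 2 higher and 0 lower. These p-values use a spread estimated over all 18 libraries. The median coefficient of variation of the members was 42.7% and 33.3% in the no-tumor groups, against 8.06% and 6.31% here. The few calls therefore do not show that the members are alike in both populations, and the count with these groups fitted alone is given with the processing. Ifi204 was at 167, 191 and 167 against 272, 317 and 303 CPM (0.76 ± 0.20, adjusted p = 0.0105), and without both isotype libraries 3 it gave 0.71 (adjusted p = 0.077). Ifi27l2a was at 33.8, 33.7 and 31.3 against 50.4, 54.4 and 48.2 CPM (0.63 ± 0.11, adjusted p = 0.000977). With the block 14 members were higher and 6 lower (16.7% and 17.4% of genes). Higher were Ifit1, Isg15 (0.64), Oas1a, Stat2, Dhx58, Ifi44 (1.31), Ifi35, Ifi27l2a, Ifi204, Zbp1, Parp9, Parp14, Xaf1 and Phf11d, and lower were Rsad2 (-0.78), Usp18 (-0.62), Cmpk2 (-0.70), Herc6, Ddx58 and Ifih1. Rsad2 was at 44.1, 41.7 and 49.7 CPM in Tim-4high and 24.1, 19.7 and 37.3 CPM in Tim-4low libraries, with no overlap. Isg15, given above, did not overlap either.
In the anti-Tim-4 group Ifi27l2a was called higher, where 0.542% of genes were higher and 0.849% lower (1.39% either way). All Tim-4low libraries were higher for 10 members (10.8% of genes). By edgeR 0 members were lower, 3 had an unadjusted p below 0.05, and DESeq2 also called 1 higher and 0 lower. Ifi27l2a was at 26.2, 30.5 and 30.7 against 35.9, 48.1 and 43.2 CPM (0.54 ± 0.11, adjusted p = 0.0285), and the call was lost in 5 of 6 omissions, all but that of anti-Tim-4 Tim-4low library 1 (up to 0.141). With the block Isg15, Isg20, Oas2, Ifi27l2a, Parp14 and Xaf1 were higher and Oasl1 lower (3.14% and 3.97% of genes).

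The pathway around the members was read from lists of its genes. Of 15 receptor and kinase genes, 4 rose and 4 fell in isotype tumor against no-tumor Tim-4high cells (26.7% each way, against 27.3% and 24.1% of all genes) and 7 rose and 3 fell in Tim-4low cells (46.7% and 20%, against 25.2% and 24.6%). The receptor gene Ifnar1 fell by 0.74 on the log2 scale in Tim-4high cells (adjusted p = 3.3e-05), and Socs3, a feedback inhibitor of cytokine signaling, rose by 0.82 ± 0.18 and 1.45 ± 0.18. Ifnar2 was lower in Tim-4low than in Tim-4high cells without tumor (-0.65 ± 0.08, adjusted p = 2.03e-05) and with isotype antibody (-0.55, adjusted p = 0.000177). Of 23 genes of the induction pathway, 7 rose and 4 fell in Tim-4high (30.4% and 17.4%) and 9 rose and 4 fell in Tim-4low cells (39.1% and 17.4%), Tlr4 by 1.05 and 1.18 and Tlr3 by 0.70 and 0.97. Of 67 other interferon-stimulated genes, 26 rose and 3 fell in Tim-4high (38.8% and 4.48%) and 36 rose and 4 fell in Tim-4low cells (53.7% and 5.97%), among them Lgals9 (0.79 and 0.85). Of 31 interferon gamma-responsive genes 8 and 13 rose (25.8% and 41.9%), and without both no-tumor libraries 2 the rises were 29 and 29, where 25.5% and 23% of all genes rose. These genes were also high in the libraries left out, so more rises follow from that choice. Of the interferon genes themselves 3 were in the table and Ifng passed the filter, at 0 CPM in 3 of 6 no-tumor libraries and 0.217 to 2.11 CPM in the isotype libraries, the highest being the libraries 3 with the T and NK cell markers. The part of those cells was not tested.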

How the data were processed

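RNA of 18 libraries of sorted macrophages was analysed. The authors deposited a table of estimated counts per gene and 2 tables of their own comparisons, holding a signed fold, a p-value and an FDR-adjusted p-value, as deposited. STAR, DESeq2 and the build mm10 are named in the submitters' processing notes. Which quantifier, gene annotation and strand setting were used is not given in the sources used here. Of the expected counts in each library 62.8% to 66.8% were whole (tolerance 0.001), and all were rounded. A deposited table of estimated counts per transcript for the same 18 libraries served here for gene identifiers, and its counts were not used.

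Genes were filtered with filterByExpr, which left out 6902 genes holding at most 0.0879% of the counts of a library. Libraries were scaled by TMM and all 18 fitted together in edgeR 4.0.16 (limma 3.58.1, R 4.3.3) with 12 residual degrees of freedom. The quasi-likelihood test gave p-values, adjusted over 16609 genes by Benjamini-Hochberg, with calls at 0.05. SE is the absolute log2 fold change over the square root of F. DESeq2 1.42.0 was an alternative, beside another filter, scaling and set of samples, the block and each library left out. Leaving out both no-tumor libraries 2 was chosen after seeing the data. The fit was tested on simulated data.

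Members and lists were chosen with earlier results of these data known. Named members are up to 10 called with the smallest p, up to 5 called and up to 5 not called with the largest change, and those called against the majority. Same-numbered libraries of the 2 populations within a condition deviated together in 9 of 9 pairs (r 0.308 to 0.6), a pairing taken from the numbers in the titles, while across conditions they did not. Ifi, Oas, Ifit, Mx, Phf11 and Trim30 genes have close copies, so their counts are uncertain where reads are shared.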

Additional observations from a re-analysis of the deposited data

Results flagged for a closer look

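The tumor effect on Ifi204 differed between the populations. The interaction was 1.30 ± 0.28 on the log2 scale (edgeR, adjusted p = 0.017), with a change of 1.70 in Tim-4low and 0.40 in Tim-4high cells. The libraries whose omission ended the call are given with the comparison.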

How the results depend on the processing

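Counts of members called moved as follows, and the cause was not tested unless fewer samples or another pairing was the setting itself. Tim-4low over Tim-4high without tumor gave 4 calls, 1 with these groups fitted alone (7.77% of all genes higher and 8.36% lower in that fit), 16 with the library number as a block and 11 without both no-tumor libraries 2 (10.1% and 9.61%). With isotype antibody it gave 2, against 20 alone (14 higher and 6 lower, where 14% and 15.5% of all genes were), 20 with the block, 1 without both isotype libraries 3 (7.69% and 9.04%) and 17 without both no-tumor libraries 2 (11.3% and 12.9%). With anti-Tim-4 it gave 1, against 0 alone and 7 with the block. The antibody effect in Tim-4high cells gave 2, against 1 with no filter, 16 alone (7 higher and 9 lower, where 9.74% and 10.5% of all genes were), 0 without both isotype libraries 3 (0.732% and 0.508%) and 10 without both no-tumor libraries 2 (4.13% and 3.52%). In Tim-4low cells it gave 0, against 1 with the block (Oasl1). Tumor against no tumor gave 31 calls without both no-tumor libraries 2 in isotype Tim-4high, isotype Tim-4low and anti-Tim-4 Tim-4high cells. The shares of all genes are given with the isotype comparison and are not given for anti-Tim-4. The tumor interaction gave 1, against 0 alone, 10 with the block and 0 without both isotype libraries 3, and the antibody interaction 0, against 2 alone (3.12% and 3.09%), 11 with the block and 2 without both no-tumor libraries 2. Leaving out 1 library gave 3 to 9, 2 to 3 and 0 to 1 calls for the populations in no-tumor, isotype and anti-Tim-4 mice, 0 to 1 and 0 to 0 for the antibody in Tim-4high and Tim-4low cells, 13 to 28 and 15 to 27 for the isotype tumor, 13 to 29 and 13 to 29 for the anti-Tim-4 tumor, and 0 to 1 for each interaction. The sign turned for Ifit2 in Tim-4low over Tim-4high cells without tumor, from -0.29 to 2.72 without no-tumor Tim-4high library 2 and 1.27 without both libraries 2 (-1.75 without Tim-4low library 2), for Zbp1 from -0.14 to 1.17 and 0.45 (-0.87), and for Ifit3 in the isotype tumor in Tim-4high cells from -0.24 to 1.12 without both. Across conditions the numbers do not pair libraries, and the block gave 20 rises and 5 falls in isotype tumor Tim-4high and 22 and 4 in Tim-4low cells. The shares of all genes called there are not given here. These larger counts thus have neither a background nor a pairing behind them. DESeq2 gave Ifi47 and Ifit2 no p-value in any comparison, so they are in none of its counts. The low members Ifi44 and Mx2, below 8 CPM, carry little depth. So does Isg20, called for the antibody, with a mean of 2.52 CPM in anti-Tim-4 Tim-4high cells (Ifi44 4.27, Mx2 2.06).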
